A study of Mus musculus with 8 samples.

Results

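In H3R17me2a ChIP-seq of mouse heart muscle nuclei, 700 of 28843 merged regions held a called peak in both control libraries and in neither Carm1 knockout library, a share of 2.43%. The members were found by merging the peaks of 4 deposited lists on chromosomes 1 to 19, X and Y wherever they shared at least 1 bp, and by keeping merged regions with a peak from control 1 and control 2 only. The members were thus chosen by the calls in these 4 lists, which rest on the p- and q-values of the peaks, and their strengths in the controls are given as a description. Merged regions called in exactly 1 control and 1 knockout library, the 4 exclusive mixed pairs, served as the comparison, because their call pattern has the same form but crosses the genotype labels.

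All 4 libraries came from hearts of Carm1fl/fl mice, in which Carm1 is flanked by loxP sites, injected with a virus on postnatal day 1. Knockout mice received AAV-CRE and control mice AAV-GFP (the protocol names the serotype AAV9), so the controls, titled WT, carry the floxed alleles and a virus too. The hearts were mosaic, infected and uninfected cells together, and nuclei were fixed, stained for PCM1, sorted to enrich cardiomyocytes and cut with MNase before H3R17me2a was immunoprecipitated. Each group had 2 ChIP libraries with 2 input libraries, no label says that the replicates were separate animals, and peak lists were used for the 4 ChIP libraries.

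Carm1 is a protein arginine methyltransferase recruited by nuclear receptors and other transcription factors. It places the asymmetric dimethyl mark H3R17me2a on a histone H3 tail and also methylates other coactivators and RNA-binding proteins. The mark is usually described at promoters and enhancers of genes being activated, and a peak caller such as MACS2 reports where immunoprecipitated fragments pile up above a local background.

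Only 1 member (0.143%) overlapped a promoter window of the RefSeq table, against 85 of all merged regions (0.295%). It is shown because it is the one place where the members' DNA can be read: the start of the lncRNA gene Gm52873 on the plus strand, chr6:116238554-116238853 in GRCm38.p6, the reference assembly behind mm10. The window runs from 250 bases before to 50 bases after the listed start, and capitals mark the 178 bases inside the member.
Gm52873 promoter: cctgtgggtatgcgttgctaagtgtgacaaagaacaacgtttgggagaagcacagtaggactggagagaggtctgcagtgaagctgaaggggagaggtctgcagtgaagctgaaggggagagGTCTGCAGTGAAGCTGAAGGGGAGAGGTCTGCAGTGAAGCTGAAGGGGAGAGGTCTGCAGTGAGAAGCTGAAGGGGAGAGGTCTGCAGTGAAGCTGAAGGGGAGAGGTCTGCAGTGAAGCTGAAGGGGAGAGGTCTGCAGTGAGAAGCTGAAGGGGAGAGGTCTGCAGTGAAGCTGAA
The member spanned 116238676 to 116239213 of chromosome 6, also inside the protein-coding gene Washc2, on which knockout 2 had 1 region. It was enriched 5.41- and 5.90-fold in the 2 controls, on 7 and 8 fragments. Its sequence is a tandem repeat. The commonest run of 20 bases, GAAGCTGAAGGGGAGAGGTC, occurred 8 times at spacings of 26 to 28 bp, 6 of them wholly in the member's part. Searched on both strands, it was found in 1 of 32851 promoter windows (0.00304%), this one. GC content was 55.3% with 2 CpG sites, where the median window had 52.7% and 7. How reads from such a repeat were placed is not given in the sources used here, and its part in this call was not tested.

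Of regions called in exactly 2 libraries, the control pair held 700 (2.43% of all regions), control 1 with knockout 1 held 441 (1.53%), control 1 with knockout 2 held 940 (3.26%), control 2 with knockout 1 held 222 (0.77%) and control 2 with knockout 2 held 450 (1.56%). The knockout pair held 315 (1.09%). The control pair was therefore inside the range of the mixed pairs, since 1 mixed pair had more. As a share of all regions that each pair had in common, the members were 36.6% of 1914, the mixed pairs 27.7, 41.7, 18.7 and 28.6%, and the knockout pair 22.8% of 1379. Members made up 5.44% of the 12870 regions of control 1 and 8.09% of the 8657 of control 2. List length moved with these counts, from 4980 peaks in knockout 1 to 12990 in control 1. With every list kept to its 4980 best peaks by q-value, the control pair held 308 exclusive regions, the mixed pairs 319, 368, 230 and 257, and the knockout pair 316.

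**Figure D1:**
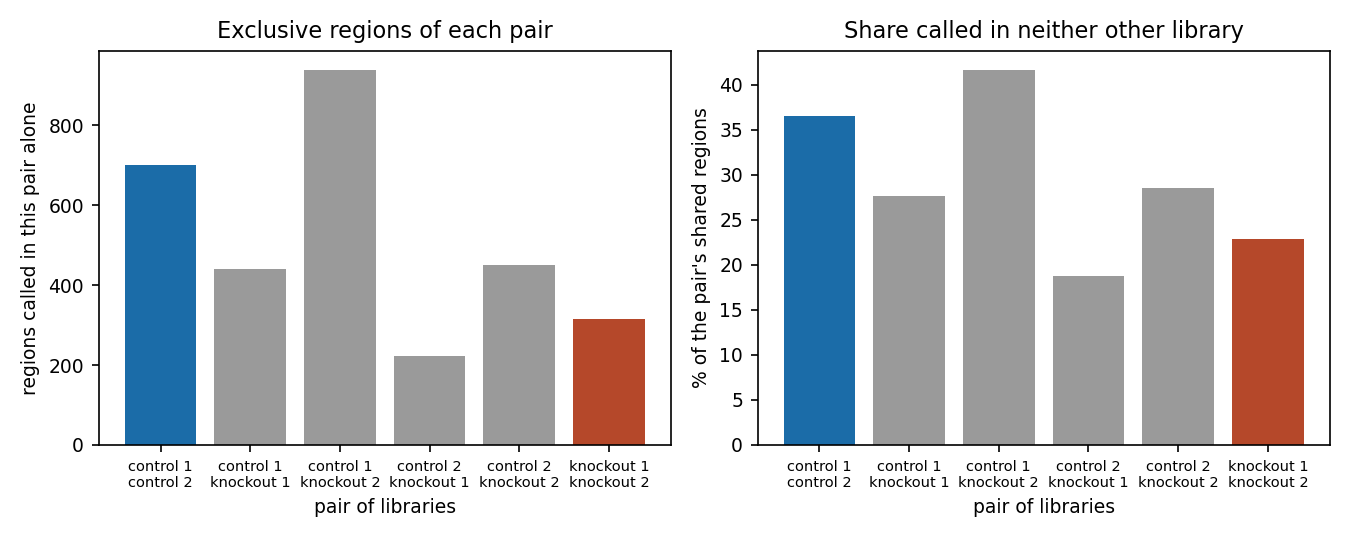
Left, the number of merged regions called in each pair of libraries and in neither other library. Right, the same as a percentage of all regions the pair shares. Bars start at 0, and each bar is 1 pair of single libraries, so there is no error bar. The control pair (700 regions, 36.6%) lies below the pair of control 1 with knockout 2 (940 regions, 41.7%).

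Both controls shared 1214 further regions with a knockout: 225 with knockout 1 alone, 387 with knockout 2 alone and 602 with both. At the edge of the definition, members tied at the lowest control 2 call, 5.00 on the −log10 p scale. Among them were regions inside Utrn, which encodes utrophin, and Bicc1, an RNA-binding protein gene. Just outside, 5 regions were left out by a single knockout call of 5.05, 5.06, 5.12, 5.15 and 5.25. Of the 612 regions left out by 1 knockout call, 39 had that call below 6.

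Most members were weak calls in both controls. Fold enrichment over background, as the authors' caller gave it, had a median of 5.73 in control 1 (2.75 to 1675) and 5.55 in control 2 (3.06 to 1770), where all peaks of those lists had medians of 5.69 and 5.44. The fold and p-value of a peak give back the fragments at its summit, and these were a median of 8 in each control (5 to 2540 and 5 to 2870) against 7 over all peaks. In 515 members (73.6%) both summits held 10 fragments or fewer, and 19 members reached 10-fold in both controls. Only 5 reached 20-fold in either. Merged members were a median of 474 bp wide (205 to 2037 bp), and the 2 control summits lay a median of 127.5 bp apart. In 289 members (41.3%) the summits were within 100 bp, and in 100 they were over 300 bp apart. Across the 700 members the fold in control 1 and that in control 2 had a Spearman correlation of 0.265. The mixed pairs gave 0.122 to 0.264 and the knockout pair 0.303. These are descriptions over regions that share 2 libraries.

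**Figure D2:**
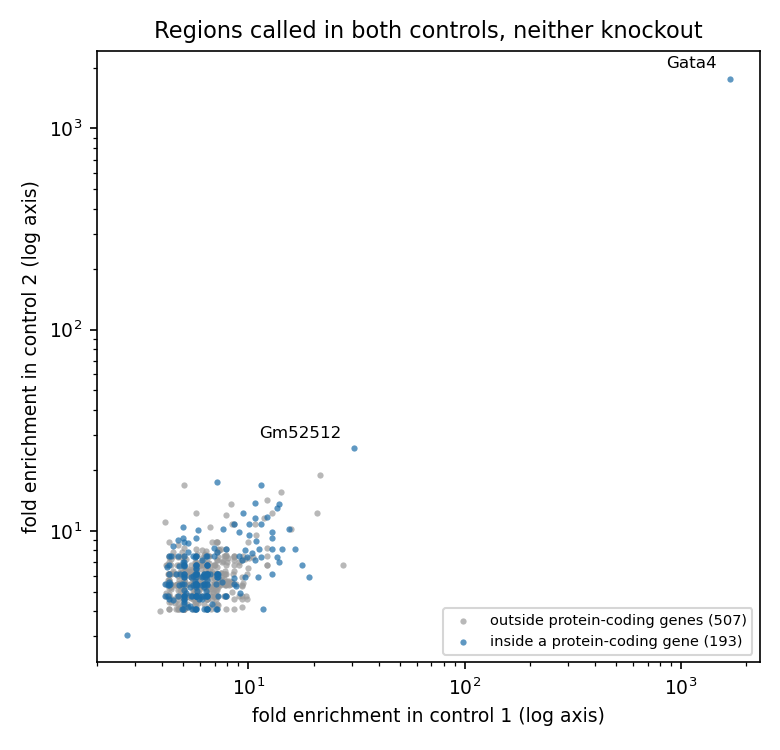
Fold enrichment of each of the 700 members in control 1 (horizontal) and control 2 (vertical), both axes logarithmic, 1 point per region. Blue points lie inside protein-coding genes (193) and grey points outside (507). The region in Gata4, at 1675- and 1770-fold, stands far from all others, and Gm52512 follows among the regions in genes at 30.8- and 25.9-fold.

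In every pair of libraries, the share of common regions that was exclusive to the pair was highest where the calls were weakest and lowest where they were strongest. Where the weaker control summit held 6 fragments or fewer, 60.3% of 471 shared regions were members. The share was 36.6% at 7 to 8 fragments, 23.2% at 9 to 10, 26.1% at 11 to 19 and 6.76% at 20 or more (10 of 148; exact 95% binomial interval 3.29 to 12.1%, counting error only). In the mixed pairs the same 5 classes ran over 38.5 to 61.8%, 21.7 to 44.5%, 15.9 to 23.5%, 10.1 to 22.3% and 2.13 to 3.91%. In the 2 strongest classes the control pair lay above every mixed pair. These shares come from the calls that chose the members, each pair is 2 single libraries, and the lists differ in length. The difference was therefore not tested. Of the 700 members, 284 (40.6%) rested on a summit of 6 fragments or fewer and 10 on at least 20 in both.

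**Figure D3:**
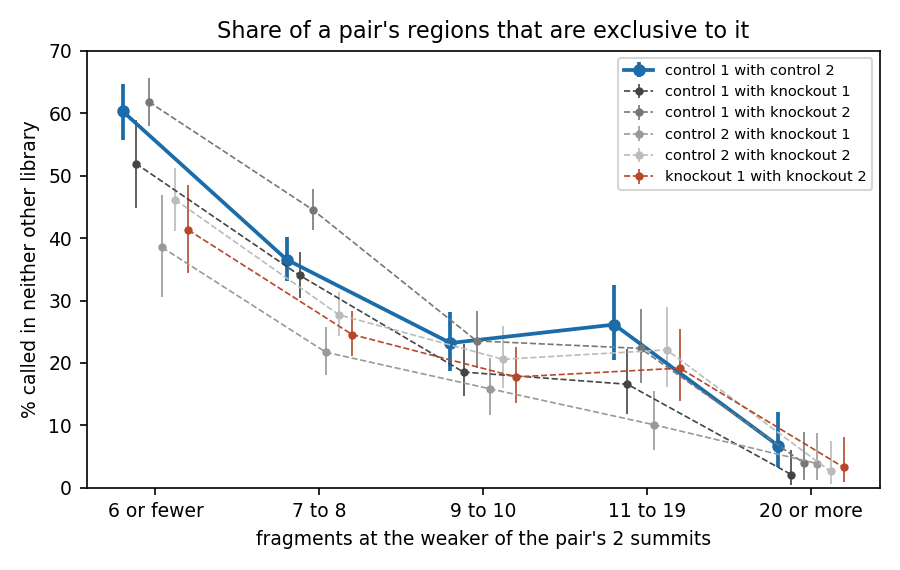
Share of each pair's common regions that were called in neither other library (vertical, %), by the fragments at the weaker of the pair's 2 summits (horizontal, 5 classes). Points are shares and bars exact 95% binomial intervals, which hold counting error only. The control pair falls from 60.3% to 6.76%, and the mixed pairs and the knockout pair fall as well.

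The highest-ranked member lay in Gata4, the gene of a zinc-finger transcription factor that heart development depends on, at chr14:63200364-63200568. It had 2540 fragments at its summit in control 1 and 2870 in control 2, and 1675- and 1770-fold enrichment. The region ended 2.73 kb short of another in the same gene, chr14:63203300-63203793, which was called in all 4 libraries, at 1605- and 1643-fold in the controls and 996- and 862-fold in the knockouts. A further Gata4 region, chr14:63240523-63241162, had 4922- and 5598-fold in the controls and 4285- and 2447-fold in the knockouts. Each list has its own background, so these folds stand side by side without a comparison. Both knockouts thus kept calls on Gata4 beside the position of the member. The folds of the Gata4 regions named here lay far above the list medians of 5.44 to 5.69 in every library that called them. What produced such folds on this gene was not tested. The Gata4 member was the narrowest of the 700, at 205 bp, and the narrowest peaks anywhere in the knockout lists were 209 bp in knockout 1 and 204 bp in knockout 2. Peak lists hold no value where no peak was called, so the knockout level at this position was not measured here. Gata4 was the only one of 23 cardiac transcription factor genes in a list that was linked to a member.

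Other strong members lay in genes of mixed kinds. The region in Gm52512, a predicted gene, at chr2:57217123-57217395, had 30.8- and 25.9-fold enrichment on 42 and 37 fragments, with a knockout 2 peak 4.22 kb away. A region in Rsrc1, a splicing regulator, at chr3:67100910-67101171, had 13.8- and 13.6-fold on 21 and 19 fragments. A region shared by Gm11213 and Tex48, at chr4:63601928-63602401, had 13.5- and 13.0-fold and lay 407 kb from any knockout peak. In Pspc1, which encodes a paraspeckle protein, the region chr14:56765118-56765364 had 9.64- and 8.09-fold on 30 and 28 fragments, and neither knockout had a region on the gene.

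Ppat, whose product starts purine synthesis, held chr5:76936518-76936779 at 11.5- and 17.0-fold, with a knockout 2 peak 1.26 kb away. Plcd3, a phospholipase C gene, held chr11:103089704-103089962 at 10.8- and 13.8-fold. Slc2a2, the glucose transporter of liver and pancreatic beta cells, held chr3:28703971-28704546 at 15.4- and 10.2-fold. Inpp5a, an inositol phosphatase gene, Cdk17, a kinase gene, and Coro2b, a coronin gene, each had over 10-fold in both controls. The 20 highest-ranked members in genes also included Gm45978, Spink2, Cdca7l, Dzip1, Aven, Tmem68, Laptm5, Gm33887 and Prkar1b, at 8.16- to 16.5-fold.

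The strongest members outside genes were at similar strength. The member with the most fragments after Gata4 lay 15.5 kb from Adgre5, at chr8:83756775-83756984, with 188 and 171 fragments but only 12.2- and 8.24-fold, since its background was 14.5 and 19.9 fragments, the highest of all members. A member in the lncRNA gene Gm20714, 53.9 kb from the imprinted gene Peg10, had 21.5- and 19.1-fold at chr6:4814442-4815248. One 19.1 kb from Tlx1, a homeobox gene, had 20.8- and 12.2-fold, and one 228 kb from Erbb4 had 14.2- and 15.6-fold. The lowest fold in either control was in Tmem267 at chr13:119602664-119603005, 2.75 and 3.06, on 27 and 33 fragments over a raised background.

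The positions of the members were set beside those of the mixed pairs. Of the 700 members, 193 (27.6%) lay inside a protein-coding gene, against 28.6, 28.0, 34.7 and 28.0% in the mixed pairs, 26.0% in the knockout pair and 30.0% of all merged regions. The difference from the mixed mean of 29.8% ± 3.26 (SD, n = 4 pairs) was −2.24 percentage points, with a two-sided exact permutation p of 0.5 over the 6 ways of labelling 2 libraries as controls. No comparison of this design can go below 0.167, and such a p reflects the spread of 4 libraries that may be technical replicates. Regions within 1 kb of a gene end made up 1.29% (exact p = 1), regions over 500 kb from any gene 9% (exact p = 0.833), regions on X 6.86% (exact p = 0.667) and regions in noncoding genes 8.71% (exact p = 0.833).

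No member came within 1 kb of a listed start of a protein-coding gene, among the 682 on chromosomes with listed starts. The mixed pairs had 4, 8, 1 and 0 such regions and all merged regions 199 (0.690%). Starts were listed for 17491 of 21883 genes, so this covers 79.9% of them. The member nearest to one lay in Pglyrp2, which encodes a peptidoglycan amidase, 1.02 kb from the start. Those at Gm11213 followed at 1.16 kb and at Lrrc59, whose product sits in the endoplasmic reticulum membrane, at 1.43 kb. The 9 members no more than 1 kb from a gene's edge lay by Gm52512, Laptm5, Anxa3, Tuba8, Olfr38, Gm52433, 4930595M18Rik, Vmn2r46 and Gbx1. Of the 158 links between a member and a gene of known strand that holds it, 23, 42, 35, 35 and 23 fell in 5 equal successive parts of the gene from its start. The genes that held members had a median length of 150 kb, where the mixed pairs gave 136 to 235 kb and all regions 172 kb.

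Within 5 kb of their spans, 216 protein-coding genes (0.987% of 21883) were linked to 221 members, 186 of them with a member inside. Of the 216 genes, 131 (60.6%) also had a region called in a knockout elsewhere on the gene, 83 in knockout 1 and 112 in knockout 2. For genes of the mixed pairs, 64.0 to 69.3% had a region of the libraries without the call, and for the knockout pair 70.8%. The 85 genes with none were shorter, with a median of 40.9 kb against 191 kb. Of the 216 genes, 48 (22.2%) were also linked to an exclusive region of a mixed pair, which is 8.19% of the 586 genes linked in those pairs.

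The dystrophin complex ties the cytoskeleton of heart and skeletal muscle to the matrix outside, and 5 of 36 genes of the intercalated disc and costamere list were linked. The mixed pairs linked 0, 6, 1 and 2. Of the 36, 15 (41.7%) had a region in some library, where 23.0% of all protein-coding genes did and 0.987% were linked to a member. The 5 linked genes are long, from 488 kb (Utrn) to 2390 kb (Dmd), where genes that held members had a median of 150 kb. Dmd, which encodes dystrophin, held chrX:83523809-83524180 at 7.05- and 5.44-fold on 11 and 7 fragments. Over the whole gene, control 1 had 20 regions and control 2 had 7, while the knockouts had 2 and 9, so Dmd was called in every library. Sgcd, a sarcoglycan gene, held chr11:47434204-47434679 at 5.72- and 6.09-fold, with 0 regions in knockout 1 and 7 in knockout 2.

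Utrn held chr10:12388918-12389434 at 4.93- and 4.08-fold, the weakest of the 5, with a knockout 2 peak 2.21 kb away. Lama2, the laminin chain that binds dystroglycan in muscle, held chr10:27360067-27360438 at 7.89- and 4.76-fold. Sntg1, a syntrophin gene, held chr1:8694836-8695137 at 4.30- and 5.41-fold. All 5 genes had a region in knockout 2 and 2 of them (Dmd, Sntg1) in knockout 1. Of all 216 linked genes, 51.9% had one in knockout 2 and 38.4% in knockout 1. With these, matrix and adhesion genes made a group of 15 that was put together after the linked genes were seen, at 4.08- to 8.84-fold. Only Col4a4 (a basement membrane collagen), Itgb5 (an integrin beta chain) and Megf6 had no knockout region. The other 12 had one, where 60.6% of all linked genes did.

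Genes here fall in more than 1 group where their roles overlap. Genes of heart signalling, metabolism and excitability, also grouped after they were seen, numbered 19 with 21 regions at 4.27- to 15.4-fold. The highest fold was that of Slc2a2, named above as a transporter of liver and pancreatic beta cells. Prkaa2, the catalytic AMP-activated kinase subunit that prevails in heart, held a pair of members, chr4:105063474-105064220 at 7.17- and 5.90-fold and chr4:105065099-105065721 at 5.02- and 4.59-fold. A knockout 2 peak lay 3.33 kb from the first, and knockout 1 had none on the gene. Ppard, a nuclear receptor for fatty acids, held a region at 12.9- and 6.10-fold. Prkar1b, a regulatory subunit of protein kinase A, held chr5:139040987-139041363 at 11.2- and 8.16-fold, 24.5 kb from a knockout 2 peak.

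The phosphodiesterase genes Pde1a (4.27- and 5.41-fold) and Pde1c (5.73- and 5.44-fold) were 2 of 19 listed phosphodiesterase and A-kinase anchor genes, and both had regions in both knockouts. The mixed pairs linked 1, 1, 0 and 1 of the 19. In some library 14 of them (73.7%) had a region, where 23.0% of all protein-coding genes did and 0.987% were linked to a member. Kcnn2, a calcium-activated potassium channel gene, Chrm3, a muscarinic receptor gene, and Trpc5, a cation channel gene, held members at 4.76- to 6.08-fold. Immp2l, a mitochondrial inner membrane peptidase gene, had 2 members, at 37.1% of its length from the start (5.38- and 5.24-fold) and at 89.9% (5.73- and 6.80-fold). In this group 5 genes, Mief1, Pfkfb4, Rcan2, Slc2a2 and Slc9a9, had no knockout region. The other 14 had one, where 131 of all 216 linked genes (60.6%) did. Among the 5 without, Mief1, which acts in mitochondrial fission, had 8.60- and 10.9-fold, and Rcan2, a calcineurin regulator, stood at 5.54- and 5.41-fold.

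None of the 34 sarcomere genes was linked, where 0.987% of all protein-coding genes were, and 10 of the 34 had a region in some library. The same count of 0 held for calcium handling (24 genes), cardiac ion channels (20), fatty acid oxidation (31), glycolysis (21), the cell cycle (25), fetal and stress genes (11) and arginine methylation (23). In the mixed pairs these lists had at most 2 linked genes each. With so low a share of all genes linked, a count of 0 in lists this short is no trait of the members. For other cells, Tek, the angiopoietin receptor of endothelium, was 1 of 14 endothelial genes, at chr4:94797306-94797779 with 4.95- and 5.43-fold. No gene of the fibroblast (13), smooth muscle (10) or macrophage (12) lists was linked, and no cell type is named from these calls.

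Of 69 synaptic adhesion and axon guidance genes 10 were linked, and the mixed pairs linked 6, 12, 3 and 5. These genes are very long, and 61 of the 69 (88.4%) had a region in some library, where 23.0% of all protein-coding genes did. Tenm3, a teneurin gene, had 9.61- and 5.90-fold. Lrp1b, Lsamp and Dlg2 are 2058, 2197 and 1973 kb long. Lsamp and Dlg2 held 2 members each at 5.41- to 6.48-fold, and Lrp1b 1 at 5.73- and 5.44-fold. Unc5c, a netrin receptor gene, had 8.72- and 5.35-fold, and Cntnap2, Cntnap5a, Erbb4, Lrrc4c and Magi2 also held members, at 4.51- to 8.16-fold. By rank the stronger Cntnap5a member (7.43- and 8.16-fold) was the highest of the 10 genes. All 10 had a region in knockout 2 and 8 in knockout 1, where 51.9 and 38.4% of all 216 linked genes did. The wider set of 23 neuronal surface genes, grouped after they were seen, ran over 4.30- to 11.5-fold. Only Ncdn lacked a knockout region, and 22 had one, where 60.6% of all linked genes did. Glutamate receptor genes added Grin2a (6.45- and 6.80-fold) and Grm8 (5.02- and 4.76-fold).

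The groups that follow were put together after the linked genes were seen, and their counts are read against the 131 of 216 linked genes (60.6%) that had a knockout region. Transcription factor and cofactor genes numbered 15, of which 9 had a knockout region, a share like that of all linked genes. Beside Gata4, Maml3, a Notch coactivator gene, held a region at 19.02- and 5.94-fold, and Meox2, a homeobox gene of muscle and vessels, one at 6.45- and 4.76-fold with a knockout 1 peak 0.628 kb away. Esr2, the estrogen receptor beta gene, had one at 5.15- and 7.26-fold upstream of the gene. Smad5, an effector of bone morphogenetic proteins, at 5.27- and 7.84-fold, Gbx1, Cdca7l, Zfp398, Zfp771 and Zfp872 had no knockout region.

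Kinase, phosphatase and Ras-pathway genes numbered 19, at 4.08- to 13.8-fold, and 11 of them had a knockout region, a share near that of all linked genes (60.6%). The 8 without were Cdk17, Hras, Inpp5a, Phlpp1, Ripk2, Slk, Sos2 and Styk1. The region downstream of Hras, a Ras gene, had 5.73- and 7.04-fold and lay 761 kb from the nearest knockout peak. Phlpp1, a phosphatase that acts on Akt, had 6.45- and 6.80-fold. RNA and ribosome genes numbered 6, with Pspc1, Utp20 and Utp3 free of knockout regions. Utp20, a factor of small ribosomal subunit assembly, had 6.45- and 6.12-fold.

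Among 12 autophagy, lysosome and vesicle genes, Atg4c, an autophagy protease gene, had 6.45- and 5.39-fold, and Laptm5, a lysosomal membrane protein of blood cells, had 9.01- and 9.86-fold at chr4:130935100-130935445. Dennd4c, Fig4 and Laptm5 had no knockout region. Of 8 lipid genes, the apolipoprotein genes Apoc2 and Apoc4 shared 1 region with Gm44805 at 9.89- and 7.44-fold, and Fa2h, a fatty acid hydroxylase gene, held one at 14.3- and 8.16-fold. Neither region lay on a gene with a knockout call, while 4 of the 8 lipid genes had a knockout region. The cytoskeletal group of 11 held Tuba8, an alpha tubulin gene, at 17.8- and 6.80-fold, and Capn1, the mu-calpain gene, at 7.17- and 7.83-fold. Cast, whose product inhibits calpain, stood at 5.66-fold in both. Of the 11 cytoskeletal genes, 5 had a knockout region.

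Innate immunity and cell death genes, grouped after they were seen, numbered 9 on 7 regions. Of these 9, 2 had a knockout region, against 131 of all 216 linked genes, and this difference was not tested. Ifit1, Ifit1bl1 and Ifit1bl2, neighbouring interferon-induced genes, shared 1 region at 12.9- and 8.12-fold. Birc3, an apoptosis inhibitor gene, had 9.32- and 7.21-fold. The 8 ubiquitin and protein turnover genes ran over 4.08- to 11.7-fold, led by Ubr2 in control 1 (11.7- and 4.08-fold). Of these 8, 3 had a knockout region. The 15 cilium, flagellum and germ cell genes ran over 4.08- to 13.5-fold, and 8 of them had a knockout region. Rsph3b, of the axonemal radial spoke, held the widest member, 2037 bp. The next widest of those linked to a gene lay at Ttc39c (1852 bp), Eef1e1 (1389 bp), Dcaf17 (1293 bp) and Adam5 (1276 bp). Mei4, needed for meiotic DNA breaks, held 2 members within a span of 1.68 kb. Rapgef6 and Zfp398 held the lowest-ranked members in genes, and 3830403N18Rik, Ces2h and Inpp4b tied with others just above, the 5 at 4.08- to 7.11-fold.

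By symbol, 4 of 1110 olfactory receptor genes, 2 of 355 vomeronasal receptor genes, 4 of 468 zinc finger genes and 14 of 1327 predicted Gm genes were linked, where 0.987% of all protein-coding genes were. The mixed pairs linked 0, 4, 0 and 3 olfactory, 1, 0, 1 and 0 vomeronasal, 2, 3, 0 and 4 zinc finger and 21, 26, 9 and 16 Gm genes. Nodal, a morphogen gene, had a member 3.35 kb upstream at 9.32- and 7.21-fold. Beside Prkaa2, Immp2l, Lsamp, Dlg2 and Mei4, the genes with 2 members were Cntnap5a, Spidr, Gm2974, Adam22, Rsrc1 and Ica1. Outside protein-coding genes, 38 members lay in lncRNA genes, among them Snhg14 and Gm10857, and 13 in pseudogenes. Members also lay in the immunoglobulin loci Igh and Igk.

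Many members had a knockout peak close by without overlap. The nearest knockout peak was within 1 kb of 126 members (18.0%) and at a median of 26.6 kb (0.003 to 861 kb). Counts per kilobase were 126, 44, 30, 24, 27 and 35 out to 6 kb, and then fell to 4, 1, 3, 2, 0 and 2 out to 12 kb. Within 6 kb, a distance chosen after the data were seen, lay a knockout peak for 286 members (40.9%), against 48.1, 39.4, 41.9 and 45.3% in the mixed pairs and 54.6% in the knockout pair. The drop at 6 kb was also in the mixed pairs, with 3.72 to 4.08% of regions at 5 to 6 kb and 0.444 to 1.36% at 6 to 7 kb. Another peak of a control list lay within 6 kb of 388 members (55.4%), and 254 (36.3%) had no other peak of any list that near. Both counts were taken for the members alone, with no value for the mixed pairs to set beside them.

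In Lrp1b, the low-density lipoprotein receptor family gene, the member chr2:42050843-42051595 ended 3 bp from a knockout 1 peak. Both members in Ica1, chr6:8697468-8698070 and chr6:8700171-8700661, lay within 1.48 kb of peaks of both knockouts. Members linked to Trim14, Mapre2 and Atoh7 had a knockout peak within 0.056 kb. At the other end, the member in Pglyrp2 (6.45- and 6.12-fold) lay 861 kb from any knockout peak, and that in Cdh23, the cadherin gene of hair-cell tip links (6.45- and 7.48-fold), 815 kb. Among members linked to a gene, those at Hras, Pgpep1 (681 kb) and Dennd4c (555 kb) came next. Their strength was like that of members with a knockout peak near: the median fold was 5.73 and 5.44 for the 286 members within 6 kb and 5.73 and 5.72 for the 414 beyond.

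**Figure D4:**
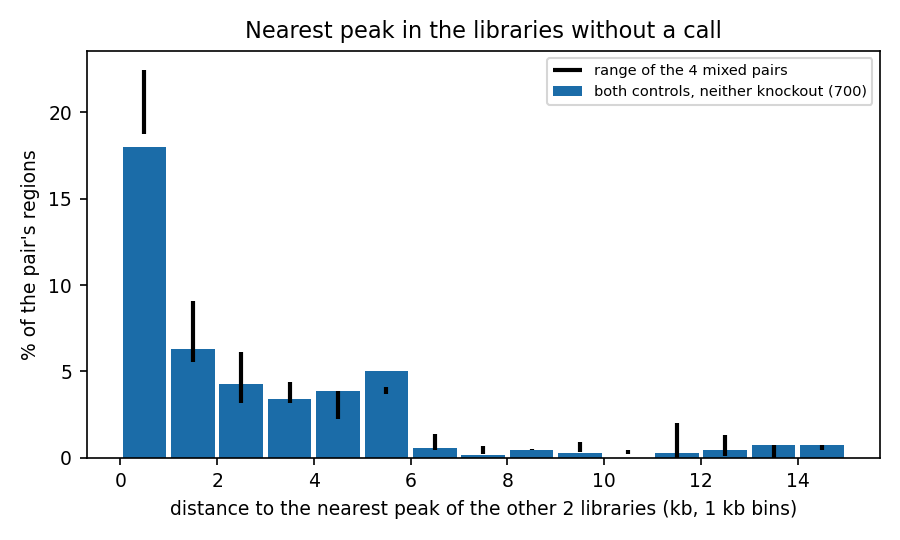
Distance from each member to the nearest knockout peak in 1 kb bins (blue bars, % of 700 members), with the range over the 4 mixed pairs of the distance to the nearest peak of the libraries without a call (black lines). Both fall after 6 kb, the members from 35 regions in the sixth bin to 4 in the seventh.

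Members sat near each other most in 2 stretches, picked out after the data were seen. In the gap between Hrh1, a histamine receptor gene, and Atg7, an autophagy gene (chr6:114483299-114643126), 17 members spread over 130 kb at 4.96- to 10.02-fold in control 1 and 4.19- to 8.01-fold in control 2. The gap held 78 and 34 peaks of the controls and 32 and 6 of the knockouts, replicates in order, and these covered 25.2, 8.35, 6.86 and 0.967% of it. Density was 48.8, 21.3, 20.0 and 3.75 peaks per 100 kb, where whole lists had 0.489, 0.329, 0.187 and 0.358. Peaks of knockout 1 were thus nearly as dense as those of control 2, and those of knockout 2 were sparser. Of its 97 regions, 37 were called in control 1 alone, 11 in control 1 with knockout 1 and 8 in both controls with knockout 1.

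The other stretch, between Gas8 and Rhou (chr8:123536658-123653928), holds 48 genes of 5S ribosomal RNA at a median spacing of 1698 bp. Here 9 members lay within 43.3 kb, at 4.60- to 7.69-fold in control 1 and 4.38- to 7.68-fold in control 2. The gap held 57, 40, 17 and 41 peaks in the order control 1, control 2, knockout 1, knockout 2, so knockout 2 was not lower than control 2. Of the 9 members 4 overlapped a 5S gene. Summits on 5S genes numbered 4 of 56, 3 of 39, 2 of 16 and 0 of 38, where these genes cover 6.94% of the array. How reads were placed among the 5S copies was not tested.

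**Figure D5:**
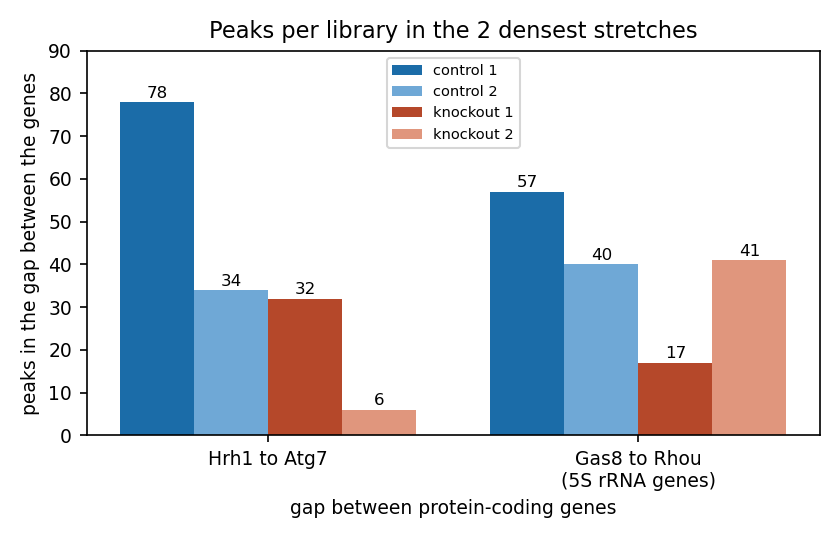
Number of peaks of each library in the gene gap between Hrh1 and Atg7 and in that between Gas8 and Rhou, which holds the 5S rRNA genes. Bars start at 0 and each is 1 library. In the first gap control 1 leads with 78 peaks and knockout 2 has 6. In the second knockout 2 has 41 peaks and knockout 1 has 17.

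A member had another within 50 kb in 85 cases (12.1%), against 4.50 to 10.7% in the mixed pairs, with an exact two-sided permutation p of 0.167, the smallest possible, and an adjusted p of 1 over the 6 positional measures. Without the 2 stretches the share was 8.75%, inside the mixed range of 4.50 to 9.80%. Chromosome 6 held the most members, 60 (8.57%, mixed pairs 4.50 to 7.03%), and 43 (6.38%) without the stretches. Chromosome 17 held 34 (4.86%, mixed pairs 2.72 to 3.19%) and chromosome 4 held 48 (6.86%, mixed pairs 2.70 to 5.22%). Of all merged regions, 6.01, 3.34 and 5.89% lay on chromosomes 6, 17 and 4. The knockout pair had 5.40, 3.49 and 9.21% there, so its share on chromosome 4 was above that of the members. The shares of chromosomes 3, 5, 7, 14, 15 and Y lay below the mixed range, as on chromosome 14 with 34 members (4.86%, mixed pairs 5.96 to 9.52%). These chromosome shares are descriptions and were not tested. Chromosome X held 48 members (6.86%), inside the mixed range of 6.80 to 7.87%, and chromosome Y held 3 (0.429%, mixed pairs 0.667 to 1.35%).

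As for the series as a whole, the 4 lists held 4980 to 12990 peaks with median folds of 5.44 to 5.69 and median summits of 7 or 8 fragments. Library read totals were not used here, so the depth behind a missing call is unknown, and the knockout signal under the members was not measured.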

How the data were processed

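H3R17me2a ChIP was deposited as MACS2 narrowPeak lists, 1 for each ChIP library. Per the submitters' processing notes the tools were FastQC, MultiQC, Bowtie2, MACS2 and DiffBind with build mm10; for their versions and settings, not given in the sources used here, nothing is assumed. Per the file format as deposited, each peak has a fold enrichment over background (a ratio), −log10 p- and q-values and the offset of its summit. These are the authors' values, called per library.

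Peaks were merged at 1 bp of overlap with Python 3.11.15, pandas 2.3.3 and NumPy 2.4.6. Fragments at a summit were solved from fold and p under a Poisson model with SciPy 1.17.1. The tolerance was 0.01 in −log10 p, widened in proportion to −log10 p for very high values such as those at Gata4. Fragments came out whole for at least 99.9% of peaks. The rank of a member is the lower of its q-value percentiles in the control lists. Genes are RefSeq GRCm38.p6 spans, linked within 5 kb. The table gives no exons, so exonic and intronic positions are not given, and all 216 linked symbols are its own. Named regions were the 20 of highest rank in genes, those linked to the 19 gene lists or to genes with 2 members, those within 1 kb of gene ends or starts and, among members linked to a gene, the 5 widest, the 5 nearest to and farthest from knockout peaks and the 5 of lowest rank. Other genes were named after their values were seen. The members and lists were chosen with earlier results of these data known.

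Shares were compared with the mixed pairs by exact permutation over the 6 labellings of the libraries, two-sided. Alternatives were a stricter q-value, lists of equal length, other merging, width and link rules, autosomes, no very strong regions, and each library left out; leaving out the dense stretches was added after seeing the data. The script was tested on simulated lists. Input libraries were not used.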

Additional observations from a re-analysis of the deposited data

How the results depend on the processing

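The number of regions, 700, was 232 with −log10 q of at least 5, 308 with lists of equal length, 453 with peaks of 250 bp or wider, and 923 to 9999 when each library was left out in turn (1089 without knockout 2, 923 without knockout 1, 6693 without control 1 and 9999 without control 2, where a single control makes the call). Linked genes, 216, became 87, 111 and 134 under the same 3 settings, 718 with a link of 50 kb and 295 to 2416 with a library left out. The difference in the share inside genes, −2.24 points, reversed to 0.481 without knockout 1, was −3.65 without knockout 2, and ran from −5.59 to −0.9997 in the other alternatives; the cause was not tested. On the log2 scale the control pair exceeded the geometric mean of the mixed pairs by 0.63, by 0.09 with lists of equal length, by 0.75 at the stricter q-value and by 0.11 to 1.07 with a knockout left out; without a control these 2 differences are not defined. Without the 2 dense stretches the values were 674 regions, 216 genes, −1.50 points and 0.60. Of the 83 named regions 26 to 82 remained under the alternatives to peak, overlap and chromosome rules. No paired analysis was possible because the results are counts of calls in peak lists and come from no fit in which replicate number could be a block. Many calls were weak: 40.6% of members had a summit of 6 fragments or fewer in a control. The part of sequencing depth in this was not tested.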
